A study of Mus musculus with 14 samples.

Results

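The partial losses on mouse chromosomes 4 and 5 were followed through single-cell DNA coverage of B16F10 melanoma cells, their host's leukocytes and cells isolated between these categories. All 554 genome bins of the 2 chromosomes were taken by their chromosome label, 280 on chr4 and 274 on chr5, out of 4880 bins in the genome. Of these, 30 (19 on chr4 and 11 on chr5) stood at exactly 10, the ceiling of most cells, in 1% of cells or more and were left out of the levels and tests, so that 524 bins remained. The 2 chromosomes were chosen by their coverage levels in earlier results of these data, which showed losses on them, so the presence of a loss is a description. The ends of the losses were set on the cultured line and naive leukocytes alone, and tests were made between classes of cells in the tumor-bearing mice.

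The study asked what genome is carried by circulating cells that look like both tumor cell and leukocyte. C57BL/6J female mice aged 6 to 8 weeks carried fluorescently labelled B16F10 tumors, and 9 samples of these mice gave 43 cells labelled CTC (circulating tumor cells, in 5 samples), 450 labelled DP (9 samples) and 46 labelled WBC (white blood cells, in 6 samples), from blood, lung or both. Reference cells were 22 B16F10 cells from culture in DMEM, which carry the cell type label CTC and no age or sex, and 21 WBC from naive C57BL/6J females of the same age. Further single samples held 18 cells labelled CDP, 24 labelled Duplike and 24 labelled PltLike. Their labels give the C57BL/6J genotype, naive treatment and an age of 6 to 8 weeks. The labels do not spell out DP, CDP, Duplike or PltLike, and do not say whether a sample is 1 mouse, so p-values below measure the spread between samples. The labels name no drug in any group, and say that single cells were sorted on tumor and host markers, so class shares also depend on the gates. The sample name is the batch label of all its cells.

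B16F10 is a melanoma line from a C57BL/6 mouse that forms lung colonies after injection into the blood. When a cell has lost one copy of a stretch of chromosome, the bins in it yield fewer reads than the rest of that cell's genome, and daughter cells inherit both the loss and its end points. The distal part of mouse chr4 carries the genes of the short arm of human chromosome 1, a region with several tumor suppressors and one that is often lost in human tumors. Chr5 carries the receptor genes Kit and Pdgfra, which melanocyte and other stem cells need, and a cluster of chemokine genes that attract neutrophils.

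Promoters of 4 genes show which sequence lies in each kind of stretch, 1 from each loss, 1 from raised bins inside the chr4 loss and 1 from a kept stretch. They come from RefSeq on GRCm38.p6, the build of the coverage bins, and run 5′ to 3′ on the gene's own strand. Capitals mark the 50 transcribed bases after 250 bases of upstream sequence. Arid1a encodes a subunit of the SWI/SNF chromatin remodeler and Chek2 a DNA damage checkpoint kinase. Epha2 encodes an ephrin receptor and Kit the receptor for stem cell factor.
Arid1a promoter, chr4:133756720-133757019, minus strand: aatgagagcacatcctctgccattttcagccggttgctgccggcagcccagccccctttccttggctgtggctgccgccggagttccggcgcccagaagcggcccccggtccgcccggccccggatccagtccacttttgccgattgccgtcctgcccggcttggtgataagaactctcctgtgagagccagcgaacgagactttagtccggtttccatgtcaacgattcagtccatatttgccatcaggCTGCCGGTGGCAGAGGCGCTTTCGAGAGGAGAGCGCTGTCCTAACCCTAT
Chek2 promoter, chr5:110839733-110840032, plus strand: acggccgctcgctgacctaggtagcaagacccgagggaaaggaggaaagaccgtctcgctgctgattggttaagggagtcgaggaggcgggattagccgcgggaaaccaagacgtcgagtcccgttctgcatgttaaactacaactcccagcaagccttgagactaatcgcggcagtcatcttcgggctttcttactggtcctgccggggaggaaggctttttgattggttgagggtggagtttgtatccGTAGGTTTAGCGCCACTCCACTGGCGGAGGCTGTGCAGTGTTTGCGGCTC
Epha2 promoter, chr4:141300971-141301270, plus strand: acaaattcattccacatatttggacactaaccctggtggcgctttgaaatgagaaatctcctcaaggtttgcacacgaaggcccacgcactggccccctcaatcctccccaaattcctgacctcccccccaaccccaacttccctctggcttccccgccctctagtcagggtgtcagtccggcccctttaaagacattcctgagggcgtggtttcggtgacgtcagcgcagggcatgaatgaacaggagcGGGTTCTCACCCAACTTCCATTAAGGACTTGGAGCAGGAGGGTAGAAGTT
Kit promoter, chr5:75574737-75575036, plus strand: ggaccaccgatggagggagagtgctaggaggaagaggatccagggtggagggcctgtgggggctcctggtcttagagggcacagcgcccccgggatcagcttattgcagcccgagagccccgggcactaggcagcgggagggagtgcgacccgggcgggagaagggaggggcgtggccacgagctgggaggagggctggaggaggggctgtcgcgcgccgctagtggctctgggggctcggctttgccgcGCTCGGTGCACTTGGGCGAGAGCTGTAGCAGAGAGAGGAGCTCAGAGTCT
The promoter of Arid1a had 61.3% G and C and 22 CpG sites, and that of Chek2 56.7% and 21 sites. The promoter of Epha2 had 54.7% and 10 CpG sites, and that of Kit 69.0% and 20 sites. Across 27025 promoters of this length, 74.8% had no more G and C than Arid1a, 62.7% no more than Chek2, 56.8% no more than Epha2 and 89.9% no more than Kit. These 4 genes were picked after their bins' values were known, and the bins, with a median width of 539 kb on both chromosomes, do not resolve a promoter.

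Each value was divided by the median over chr1 to chr19 of its own cell, and the quotient is called the level, so that 1 is a typical bin of that cell. The level of a chromosome part is the median over its bins. The values hold no read counts. Their depth is therefore unknown, and the spread between neighbouring bins of a cell on the log2 scale (0.136 to 0.270) stands for its precision. No pair of the 648 cells had identical values. Cells also fall into coverage states 1 to 5 by their undivided autosomal median, with WBC at state 1 and all 43 CTC at state 2.

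In the cultured line, 1 long run of lowered bins lay at the distal end of chr4 and 1 inside chr5. A run was required to have at least 10 bins with a running median of 5 bins at or below -0.3 in log2 culture over naive WBC. On chr4 this gave chr4:114073164-139045952 (47 bins, 24.97 Mb) and chr4:142134487-156508116 (26 bins, 14.4 Mb), which reaches the chromosome's end. On chr5 it gave chr5:84410385-116947591 (58 bins, 32.5 Mb). With a limit of -0.2 the chr4 runs joined into chr4:113510469-156508116 (78 bins), and the chr5 run widened to chr5:78308339-117468107 (70 bins). These wider ends are those at which the mean profile of the culture steps. On chr5 11 bins separate its step from the stricter run. In the culture the chr4 lost part had a level of 0.717 ± 0.0340 (SD over 22 cells) and the chr5 lost part 0.732 ± 0.0380, against 0.958 ± 0.0322 and 0.974 ± 0.0329 in naive WBC (21 cells).

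The same stretches were low in CTC from mice, while the medians of the remaining bins of both chromosomes were near 1. In single cells the chr4 lost part had a level of 0.745 ± 0.0279 in 43 CTC, 0.838 ± 0.118 in 450 DP cells and 0.975 ± 0.0367 in 46 WBC (SD over cells). The chr5 lost part had 0.736 ± 0.0384 in CTC, 0.848 ± 0.116 in DP cells and 0.984 ± 0.0341 in WBC. The highest CTC was at 0.856 on chr4 and 0.835 on chr5, below the lowest WBC at 0.905 and 0.895. DP cells covered both ranges. The 184 bins of chr4 before its loss had a level of 0.994 ± 0.0349 in CTC and 0.983 ± 0.0475 in WBC. On chr5 the 140 bins before the strict run had 0.974 ± 0.0419 in CTC and 0.969 ± 0.0304 in WBC, and the 65 bins after it 0.997 ± 0.0474 and 1.03 ± 0.0427.

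The chr4 loss begins within the Skint gene cluster, whose members encode butyrophilin-like proteins of skin and thymus. In the bin before the step, chr4:112930690-113510468, the level was 1.09 ± 0.149 in CTC and 1.13 ± 0.180 in WBC (SD over cells). The next bin, chr4:113510469-114073163, had 1.03 ± 0.180 in CTC and 1.24 ± 0.25 in WBC, and the one after it 0.828 ± 0.111 and 1.15 ± 0.129. The CTC level thus came down over 2 bins rather than at 1 boundary. Skint5 (chr4:113477891-113999503) spans the boundary at 113510469, and Skint6 (chr4:112804616-113286973) is the gene before it.

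The chr5 loss begins in a stretch without annotated protein-coding genes. In chr5:77710049-78308338 the level was 0.954 ± 0.108 in CTC and 1.05 ± 0.125 in WBC, and in chr5:78308339-78862547 it was 0.715 ± 0.0626 and 0.938 ± 0.108. Before it lie Spink2, Rest (a repressor of neuronal genes), Noa1, Polr2b (an RNA polymerase II subunit) and Igfbp7, which ends at 77408045. At the end of the chr5 loss the mean profile of the culture steps between chr5:116947592-117468107 and chr5:117468108-117975694. The first bin had 0.924 ± 0.103 in CTC and 1.17 ± 0.114 in WBC, the second 1.33 ± 0.176 and 1.40 ± 0.103. Their boundary falls inside Ksr2 (chr5:117414002-117767996), which encodes a scaffold protein of the RAF and MAP kinase cascade. The first bin was lowered less than the bin before it (log2 culture over naive WBC of -0.29 against -0.45). Bins of this width do not place the break in 1 gene. Suds3, Taok3, Pebp1, Vsig10, Wsb2 and Rfc5 lie in the low bin, and Nos1 in the kept one.

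**Figure D1:**
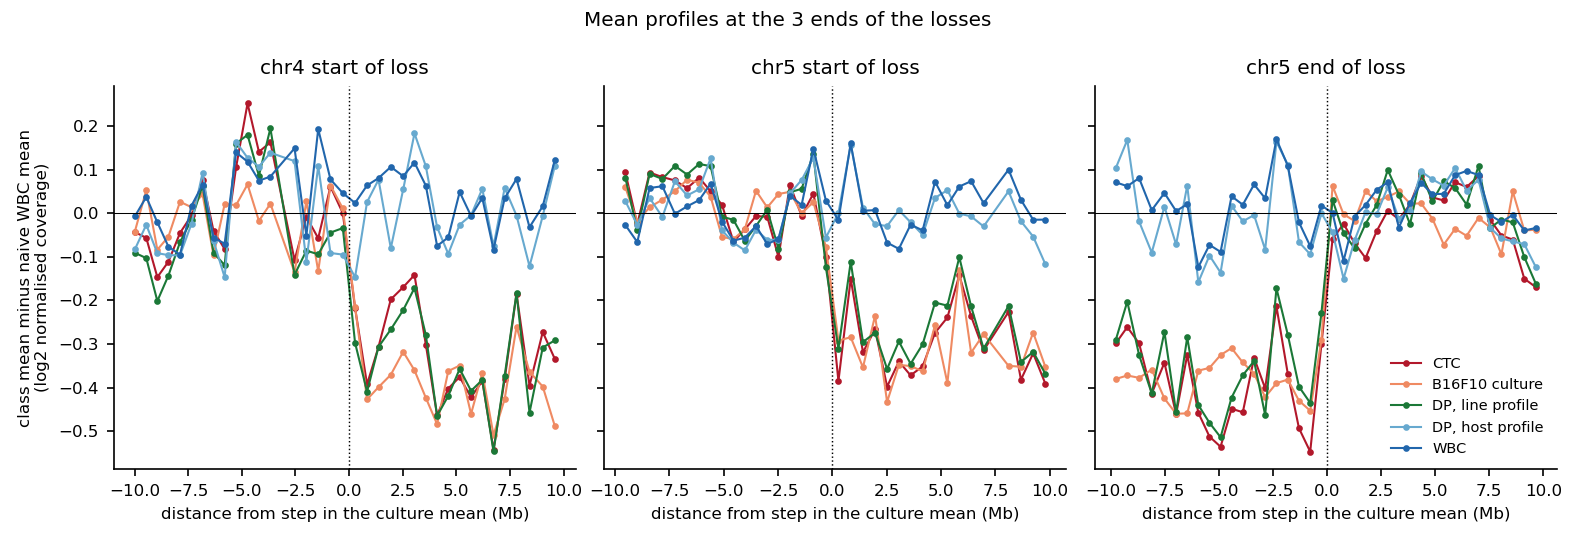
Class mean minus naive WBC mean of each bin (log2 normalised coverage) against distance from the culture step in Mb, at the chr4 start, the chr5 start and the chr5 end of the losses; points joined by lines are bins and colours are CTC, B16F10 culture, DP cells of line profile, DP cells of host profile and WBC. CTC, culture and line-profile DP run together below the host-profile DP and WBC on the lost side of each step. On the kept side all 5 scatter around 0, with CTC at 0.25 and WBC at 0.19 in single bins before the chr4 step.

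A step was also fitted in each cell by least squares, without using its class. The median CTC had its step at the same boundary as the culture mean at all 3 ends. At the chr4 start, 32 of 43 CTC lay within 2 bins of it and 18 at the same boundary. At the chr5 start the counts were 36 and 27 of 43 CTC, and at the chr5 end 35 and 25. Cultured cells lay within 2 bins in 20, 18 and 22 of 22 cells, in the same order of ends. DP cells whose other autosomes match the line (defined below) did so in 177, 166 and 183 of 235 cells. PltLike cells scattered more, with 10, 7 and 16 of 24 cells within 2 bins and median offsets of -2, 6.5 and -2 bins. At the chr5 start 44 of 235 line-profile DP and 11 of 24 PltLike cells lay more than 10 bins off. At the chr5 end 19 of 235 line-profile DP cells, 2 of 43 CTC and 2 of 24 PltLike cells shared an offset of 31 bins. No cultured cell had that offset, and its cause was not tested. The fit of a single cell is noisy, and a distant fitted step is not shown to be a different break. Least absolute deviations in place of squares gave 32, 40 and 35 of 43 CTC. For PltLike they gave 7, 13 and 17 of 24 cells, with a median offset of 2 bins at the chr5 start, so the position there depends on the fit.

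**Figure D2:**
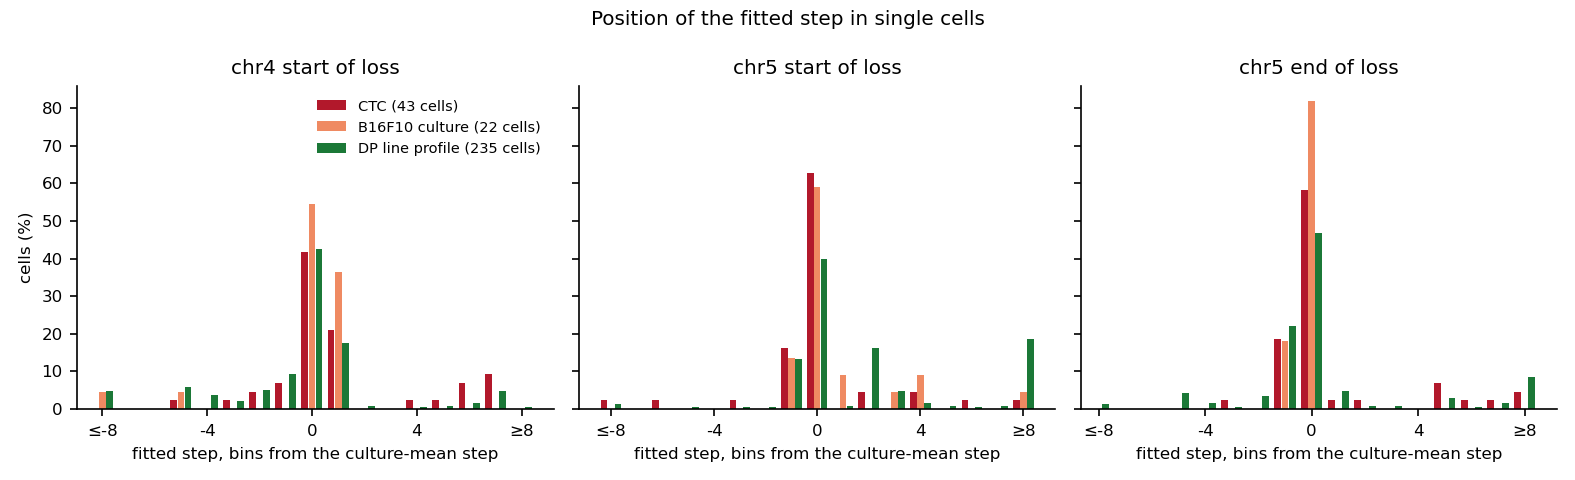
Share of cells (%) against the offset of the fitted step from the culture-mean step, in bins, at the chr4 start, chr5 start and chr5 end, for 43 CTC, 22 cultured cells and 235 line-profile DP cells; offsets of 8 or more are pooled at the edges. The tallest bar of each class stands at 0 in all 3 panels.

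Sample by sample, both lost parts were lower in CTC than in WBC. On chr4 the level of CTC was 0.760 in C1L, 0.758 in C1N, 0.751 in C1R, 0.733 in C2R and 0.731 in C3R, against WBC at 0.982, 0.988, 0.965, 0.977 and 0.965 in the same samples (back-transformed means of log2 levels). On chr5 CTC stood at 0.717, 0.793, 0.731, 0.719 and 0.740, against WBC at 1.01, 0.978, 0.988, 0.979 and 0.980. The classes did not overlap on either chromosome. The mean difference of CTC minus WBC was -0.39 ± 0.022 log2 on chr4 (SD over 5 samples, a ratio of 0.765) and -0.42 ± 0.071 on chr5 (ratio 0.75). It was negative in 5 of 5 samples on both, with p = 0.0625 in the two-sided exact sign-flip permutation test, the smallest value that 5 samples allow, so that this test cannot pass 0.05. The kept parts differed by 0.0095 ± 0.024 log2 on chr4 (exact p = 0.4375) and -0.013 ± 0.060 on chr5 (exact p = 0.625), less than the spread between samples.

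DP cells as a class lay between CTC and WBC, at sample levels that spread widely. The class mixes cells with and without the losses, counted below, so these levels are not the depth of the loss in carriers. Over 9 samples the chr4 lost part had its lowest DP level in P2 at 0.765, the median in P1 at 0.866 and the highest in C2N at 0.954. On chr5 the lowest was C3R at 0.768, the median P1 at 0.876 and the highest C2N at 0.960. In the 5 samples with all classes, DP minus WBC was -0.24 ± 0.10 log2 on chr4 and -0.23 ± 0.13 on chr5, negative in 5 of 5 samples (exact p = 0.0625 for each). CTC minus DP was -0.14 ± 0.093 on chr4 and -0.18 ± 0.090 on chr5, again negative in 5 of 5 (exact p = 0.0625 for each). With blood cells alone it shrank to -0.062 on chr4 and -0.10 on chr5. The chr5 loss was as deep as the chr4 loss in CTC within the spread, with a chr5 minus chr4 difference of -0.014 ± 0.057 log2, below 0 in 3 of 5 samples (exact p = 0.5625).

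Bin by bin, nearly every bin of both losses was lower in CTC than in WBC. Limma with the sample as a block and Benjamini-Hochberg adjustment over 4376 autosomal and X bins called 49.8% of all bins at 0.05, with 29.7% lower and 20.1% higher in CTC. In the chr4 lost part 72 of 73 bins were lower and 0 higher, with a median of -0.39 log2, and in the chr5 lost part 58 of 58 were lower, with a median of -0.40. The median over all bins was -0.010. In the kept parts 15 of 188 bins of chr4 were lower and 22 higher, and 25 of 205 bins of chr5 were lower and 14 higher, both below the genome's share. The 11 bins of chr5 between its step and the strict run were all lower, with a median of -0.31, and belong with the loss by this measure.

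In DP cells against WBC the genome's share of called bins was 39.1%, with 24.3% lower and 14.8% higher. The chr4 lost part had 70 of 73 bins lower (median -0.24 log2) and the chr5 lost part 58 of 58 (median -0.23). The kept parts had 11 lower and 1 higher bin of 188 on chr4, and 12 lower and 4 higher of 205 on chr5. The count over both chromosomes was 156, and it was 85 without C1L and 90 without C2R. For CTC against DP cells the genome's share was 23.9%, with 14.5% lower and 9.46% higher. There 33 of 73 chr4 bins and 39 of 58 chr5 bins of the losses were lower in CTC, and 3 and 7 bins of the kept parts. These CTC minus DP calls rest on the set of samples, since no bin of the 2 chromosomes was called without C1N, without C1R, without C2R or with blood cells alone (at unadjusted p under 0.05 there were 119, 95, 119 and 65).

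The 1 bin of the chr4 lost part that was not called was chr4:150135209-150650598. It holds the sugar transporter genes Slc2a5 and Slc2a7, the carbonic anhydrase gene Car6 and the enolase gene Eno1, and parts of Rere and Slc45a1. Its level was 0.839 ± 0.119 in CTC and 0.839 ± 0.10 in WBC, while it was 0.725 ± 0.0707 in the culture and 0.775 ± 0.0761 in naive WBC. The kept bin of chr5 with the most negative CTC minus WBC difference was chr5:19660804-20201476, inside Magi2, a very long gene for a synaptic scaffold protein. Its level was 0.714 ± 0.0763 in CTC and 1.43 ± 1.00 in WBC, with a fitted difference of -0.79 log2 (SE 0.073, limma adjusted p = 2.04e-07). WBC scattered widely there, with sample means of 1.08 to 2.28 and a median cell at 1.04, while CTC samples stayed within 0.695 to 0.742. Means over cells were also low in the culture (0.689), PltLike (0.696), Duplike (0.774) and CDP (0.775). The median cell of naive WBC was at 1.05. The kept bin of chr4 with the most negative difference, chr4:42180868-42769499, was close to empty in every class (0.000775 in CTC and 0.00140 in WBC), so its call (-0.99 log2) depends on the pseudocount. Without it 205 rather than 206 bins of the 524 were called.

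Genes were followed through the bin over their midpoint, in 4 lists of 49 genes that had been put together with earlier results known. All 49 were found on the 2 chromosomes in RefSeq, and 48 had a measured bin. The 26 genes in the losses share 21 bins, and the 22 in kept parts share 19, so genes of one bin have one value. All 26 genes in the losses were lower in CTC than in WBC (median -0.41 log2) and all 26 lower in DP cells than in WBC (median -0.24). Of the 22 kept genes 3 were lower and 1 higher in CTC than in WBC (median 0.021), and 2 were lower in DP cells. Between CTC and DP cells 13 of 26 genes in the losses and 0 of 22 kept genes were called, all lower in CTC, and none of these calls remained without C1N, without C1R or without C2R. Over all bins 29.7% were lower in CTC than in WBC, 24.3% lower in DP cells than in WBC and 14.5% lower in CTC than in DP cells. Of the lost bins, 72 of 73 on chr4 and 58 of 58 on chr5 were lower in CTC than in WBC. For DP cells against WBC these counts were 70 of 73 and 58 of 58. Counts of genes in the losses, here and by list below, thus follow from position and are no separate result.

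Among growth signalling genes 6 lay in the losses, and all 6 were lower in CTC than in WBC (median -0.42 log2). Mycl, a MYC family transcription factor gene, had the lowest sample mean at 0.658 and the highest at 0.746 in CTC, against 0.893 to 1.07 in WBC. The 2 ranges did not overlap, and the fitted difference was -0.47 log2 (SE 0.043, limma adjusted p = 1.53e-07). Csf3r, the receptor for granulocyte colony-stimulating factor, had 0.657 ± 0.0406 in CTC, 0.752 ± 0.0645 in DP cells and 0.918 ± 0.0234 in WBC (SD over 5 samples here and below). Lck, a T cell kinase, shares its bin with Hdac1, a histone deacetylase, at 0.650 ± 0.0194 in CTC, 0.712 ± 0.0411 in DP cells and 0.880 ± 0.0377 in WBC. Mtor, the growth kinase that senses nutrients, had 0.720 ± 0.0516 in CTC, 0.774 ± 0.0672 in DP cells and 0.929 ± 0.0287 in WBC. On chr5 Areg, which encodes the EGF receptor ligand amphiregulin, had 0.745 ± 0.0426 in CTC, 0.853 ± 0.0796 in DP cells and 0.998 ± 0.0755 in WBC. These 5 genes had CTC minus WBC differences of -0.47 to -0.36 log2, each lower in 5 of 5 samples.

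The 11 kept growth signalling genes included 1 that was higher and 1 that was lower in CTC. Tyrp1, a melanosome enzyme, had 1.16 ± 0.0812 in CTC and 1.05 ± 0.0763 in WBC, a difference of 0.15 log2 (SE 0.040, limma adjusted p = 0.00389), while the culture at 1.02 and naive WBC at 1.03 did not stand apart. Flt3, a receptor of blood progenitors on distal chr5, was lower at 0.808 ± 0.0413 in CTC and 0.896 ± 0.0209 in WBC (limma adjusted p = 0.00834). Jun, an AP-1 subunit, had 0.962 ± 0.0498 in CTC and 0.988 ± 0.0457 in WBC, and the cytokine receptor kinase gene Jak1 0.915 ± 0.0632 and 0.954 ± 0.0502. Hgf, the ligand of the MET receptor, had 0.913 ± 0.0183 in CTC and 0.891 ± 0.0756 in WBC. The limma adjusted p values of Jun, Jak1 and Hgf were 0.615, 0.372 and 0.402. Kit and Kdr, which encode the receptors for stem cell factor and VEGF, lie before the chr5 loss in one bin at 0.979 ± 0.0439 in CTC and 1.02 ± 0.0489 in WBC (limma adjusted p = 0.362).

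Cell cycle and tumor suppressor genes in the losses numbered 10, and all 10 were lower in CTC than in WBC (median -0.39 log2). Arid1a had sample means of 0.594 to 0.727 in CTC, against 0.825 to 0.879 in WBC, with no overlap and a difference of -0.37 log2 (SE 0.050, limma adjusted p = 9.96e-06). Errfi1, an inhibitor of the EGF receptor, had 0.730 ± 0.0216 in CTC, 0.827 ± 0.0771 in DP cells and 0.990 ± 0.0346 in WBC. Chd5, a chromatin remodeler gene of the distal end, had 0.776 ± 0.0699 in CTC, 0.880 ± 0.0767 in DP cells and 1.04 ± 0.0362 in WBC. On chr5 Chek2 had 0.776 ± 0.0605 in CTC, 0.876 ± 0.0610 in DP cells and 1.01 ± 0.0479 in WBC. Cdc7, a kinase that starts replication origins, had 0.764 ± 0.0212 in CTC, 0.870 ± 0.0721 in DP cells and 1.05 ± 0.0450 in WBC. Ccng2, a cyclin of arrested cells, had 0.687 ± 0.0510 in CTC, 0.802 ± 0.0748 in DP cells and 0.930 ± 0.114 in WBC. The CTC minus WBC differences of these 6 genes ran from -0.43 log2 for Cdc7 to -0.36 for Chek2.

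Of the 6 kept genes of that list 2 were lower in CTC, Cdkn2a and Cdkn2b, which encode inhibitors of cyclin-dependent kinases. They share chr4:88993196-89569809, which had 0.981 ± 0.0678 in CTC, 1.03 ± 0.0390 in DP cells and 1.13 ± 0.0434 in WBC, a CTC minus WBC difference of -0.20 log2 (SE 0.043, limma adjusted p = 0.000845). The same bin stood at 0.846 ± 0.0934 in the culture and 1.04 ± 0.116 in naive WBC. Cdkn2c, a related inhibitor nearer to the loss, had 0.899 ± 0.0373 in CTC and 0.870 ± 0.0174 in WBC (limma adjusted p = 0.406). Brca2, a recombination gene at the distal end of chr5, had 0.878 ± 0.0325 in CTC and 0.894 ± 0.0256 in WBC (limma adjusted p = 0.760).

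DNA repair and chromatin genes divided in the same way, with 5 of 5 lower in the losses (median -0.33 log2) and 0 of 4 called in kept parts. Pole, the catalytic subunit of a replicative DNA polymerase, had sample means of 0.591 to 0.664 in CTC, against 0.813 to 0.880 in WBC, and a difference of -0.44 log2 (SE 0.042, limma adjusted p = 2.69e-07). The kept mismatch repair gene Pms2 had 1.06 ± 0.0249 in CTC and 1.06 ± 0.0369 in WBC, and the chromatin gene Kmt2e 0.822 ± 0.0319 and 0.784 ± 0.0392. Secreted and matrix genes in the losses were 5 in 2 bins of chr5, and all 5 were lower. The chemokine genes Cxcl1 and Cxcl5 share a bin with Pf4, Ppbp and Ereg, at 0.823 ± 0.0342 in CTC, 0.957 ± 0.102 in DP cells and 1.12 ± 0.0497 in WBC. Spp1, which encodes osteopontin, had 0.667 ± 0.0284 in CTC, 0.763 ± 0.0576 in DP cells and 0.883 ± 0.0363 in WBC.

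Inside the chr4 loss, 3 adjacent bins were raised rather than lowered. They cover chr4:140068739-141612560, hold 28 protein-coding genes and lie between the 2 strict runs of the chr4 loss. Among the genes are the peptidylarginine deiminase family (Padi1, Padi2, Padi3, Padi4 and Padi6), which convert arginine to citrulline, Sdhb, a subunit of mitochondrial complex II, Epha2, Spen, a transcriptional repressor, and Zbtb17, a partner of MYC. The middle bin, chr4:140574353-141093730, was at the ceiling in 3 of 450 DP cells and in no CTC or WBC, few enough to be tested. Its CTC sample means ran from 1.55 to 1.74, against 0.937 to 0.982 in WBC, with DP cells from 1.15 to 1.52 in the same 5 samples. In C2N, which has no CTC, DP cells stood at 0.944 and its 2 WBC at 0.869. CTC minus WBC was 0.80 log2 (SE 0.042) and DP minus WBC 0.43, both called by limma, and it was the highest difference of all kept bins of chr4. The culture had 1.66 ± 0.133 and naive WBC 0.963 ± 0.0781 (SD over cells).

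The outer raised bins were at the ceiling in some cells, which makes such levels lower bounds. The first, chr4:140068739-140574352, had 2.25 ± 0.191 in CTC, none of them at the ceiling, and 1.30 ± 0.110 in WBC. The third, chr4:141093731-141612560, had 2.58 ± 0.0939 in CTC, of which 13 of 43 were at the ceiling, and 0.916 ± 0.114 in WBC. The bins before them were still lower in CTC. In chr4:139556281-140068738 the level was 1.00 ± 0.112 in CTC and 1.19 ± 0.106 in WBC, and in chr4:139045953-139556280 it was 0.707 ± 0.0752 and 0.900 ± 0.0663, both called as lower in CTC. The bin after them, with the apoptosis gene Casp9, had 0.976 ± 0.0940 in CTC and 1.03 ± 0.123 in WBC and was not called (limma adjusted p = 0.260). The middle bin was above the highest of all WBC and naive WBC (1.15) in 43 of 43 CTC, 22 of 22 cultured cells, 24 of 24 PltLike, 18 of 18 CDP, 19 of 24 Duplike and 268 of 450 DP cells.

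**Figure D3:**
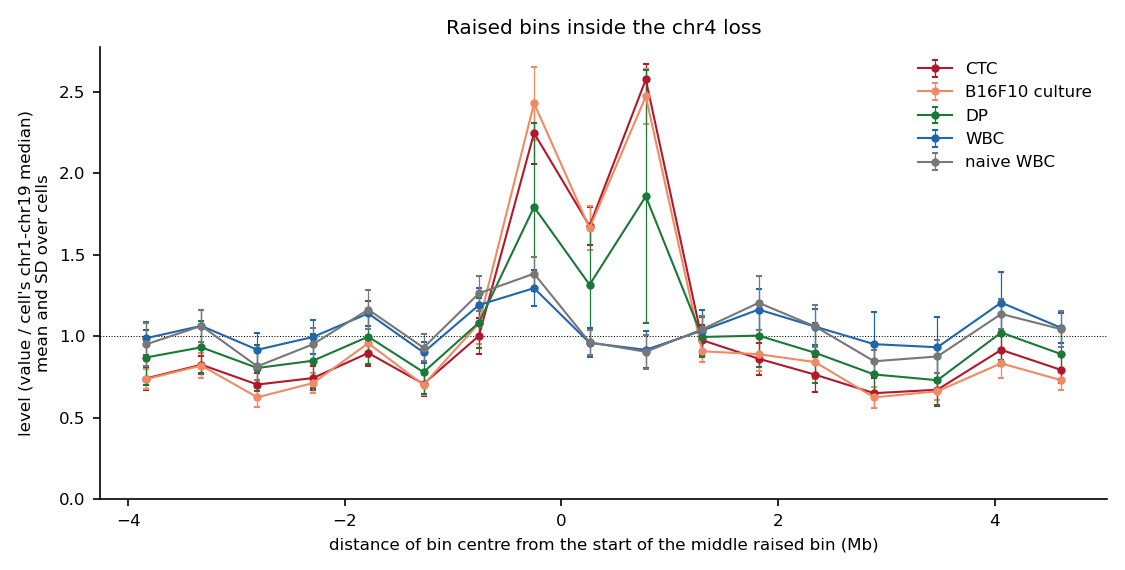
Level of each bin (value over the cell's chr1-chr19 median, mean and SD over cells) against distance in Mb from the start of the middle raised bin, for CTC, B16F10 culture, DP, WBC and naive WBC. The 3 raised bins stand at 2.25, 1.68 and 2.58 in CTC and at 1.30, 0.959 and 0.916 in WBC, with the lowered bins of the loss on both sides in CTC.

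To ask which cells carried the losses, each cell was given a step on each chromosome, log2 of its lost part over its kept part. A cell was called a carrier below the midpoint of culture and naive WBC, -0.24 on chr4 and -0.22 on chr5. Both losses were carried by 43 of 43 CTC (95% exact binomial interval 91.8 to 100%), 22 of 22 cultured cells and 24 of 24 PltLike cells. No WBC of tumor-bearing mice carried either loss (0 of 46, which allows a share of up to 6.52%, taking 3 cells of the total as the limit), and no naive WBC did (0 of 21, up to 14.3% by the same limit). Intervals and limits cover counting error only. Of 450 DP cells 249 carried both losses (55.3%, 50.6 to 60.0%), 17 carried 1 and 184 neither. Duplike had 17 carriers of both among 24 (70.8%, 48.9 to 87.4%) and CDP 15 among 18 (83.3%, 58.6 to 96.4%). Within 0.05 of a limit lay 10 of 24 Duplike and 8 of 18 CDP cells. Both shares therefore depend on where the limit is set. PltLike, Duplike and CDP are labelled naive, and their carriers go against that label if it means cells of naive mice alone.

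The chr4 and chr5 losses came together with the rest of the line's profile. A score over the other 17 autosomes, set to 0 for the mean of naive WBC and to 1 for that of the culture, put DP cells in a line profile (above 0.75, 235 cells), a host profile (below 0.25, 176 cells) or between (39 cells). The score uses neither chromosome. Both losses were carried by 225 of 235 line-profile DP cells (95.7%, 92.3 to 97.9%), 24 of 39 intermediate ones (61.5%, 44.6 to 76.6%) and 0 of 176 host-profile ones (up to 1.70%, 3 cells of the total). The middle raised bin followed, above the highest WBC in 232 of 235, 32 of 39 and 4 of 176 cells of the 3 profiles. The depth of the losses in line-profile DP cells was close to that in CTC. These cells were picked by a score of how fully the other autosomes show the line's profile. That choice favours a similar depth, so the comparison does not speak for DP cells as a class. Their lost parts differed from those of CTC of the same samples by -0.022 ± 0.035 log2 on chr4 (below 0 in 4 of 5 samples, exact p = 0.3125) and 0.029 ± 0.036 on chr5 (above 0 in 4 of 5, exact p = 0.1875), less than the spread between samples. With a score limit of 0.5 the chr5 difference was 0.058 ± 0.025 log2, with exact p = 0.0625, the smallest possible.

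**Figure D4:**
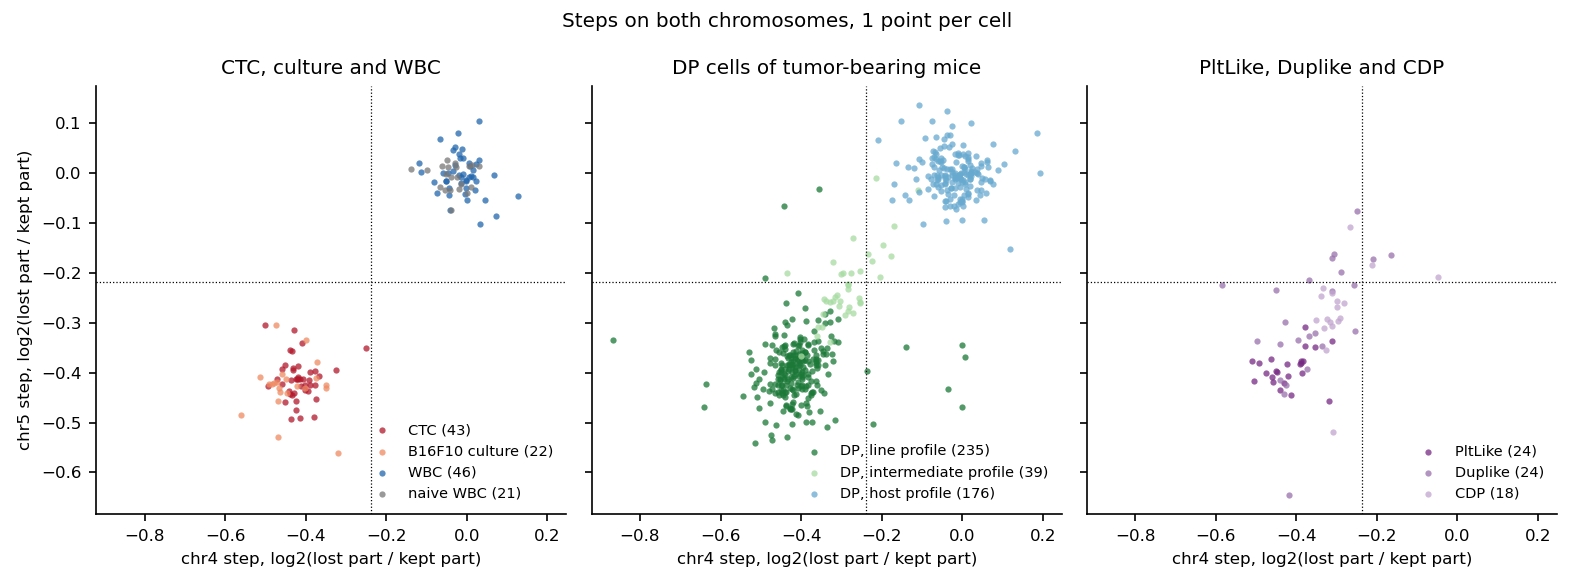
Step on chr5 against step on chr4, each log2 of lost part over kept part, 1 point per cell, with the carrier limits dotted; the panels show CTC, culture and WBC, then DP cells by profile, then PltLike, Duplike and CDP. CTC and cultured cells lie below both limits, WBC and naive WBC above both, and the medians of the 39 intermediate DP cells lie between those of line-profile and host-profile cells, with ranges that overlap both.

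Step size differed between DP cells of different coverage state and profile, which change together. Line-profile DP cells of state 2 (216 cells) had median steps of -0.42 on chr4 and -0.40 on chr5, like the medians of -0.42 and -0.41 in 43 CTC. Host-profile DP cells of state 1 (176 cells) had -0.017 and -0.0047. Intermediate DP cells of state 3 (24 cells) had -0.29 and -0.25, and those of state 4 (9 cells) -0.21 and -0.16. CDP cells of intermediate profile, all of state 3 (15 cells), had -0.30 and -0.26, close to DP cells of that state, and Duplike cells of that kind (12 cells) had -0.31 and -0.22. DP cells of state 5 with line profile (13 cells) had -0.37 and -0.35, and those of state 3 with line profile (5 cells) -0.34 and -0.35. Intermediate DP cells of state 2 (3 cells) had -0.35 and -0.34, and those of state 5 (3 cells) -0.36 and -0.31. The carrier limits pass through the range of states 3 and 4, and 29 of 39 intermediate DP cells lay within 0.05 of a limit, so their carrier share depends on where the limit is set. No test was made of these medians, since cells of one sample are not replicates.

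The depths of the steps on both chromosomes varied with little relation among CTC, among line-profile DP cells and among host-profile DP cells. Pearson's r over cells was -0.00061 in 43 CTC, 0.085 in 235 line-profile and -0.099 in 176 host-profile DP cells, and -0.22 in 46 WBC. It was 0.71 in 39 intermediate DP cells, which span several coverage states. No value is given over all DP cells, since they fall into separate clusters. These are descriptions over cells that share samples and a common autosomal median. Bin profiles of single cells over the 524 bins were compared with culture minus naive WBC in the same way. The median r was 0.838 in CTC (0.486 to 0.921), 0.755 in line-profile, 0.654 in intermediate and 0.0804 in host-profile DP cells, and 0.0632 in WBC. It was 0.789 in CDP, 0.681 in PltLike and 0.619 in Duplike. Cultured cells, which also set the comparison profile, had 0.845, and naive WBC, which did so too, -0.0041.

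The share of DP cells with both losses differed greatly between samples and tissues. Carriers were 70 of 177 DP cells from lung (39.5%, 32.3 to 47.2%) and 179 of 273 from blood (65.6%, 59.6 to 71.2%). By sample, lung had 0 of 7 in C1L, 0 of 14 in C1N, 1 of 34 in C1R and 6 of 25 in C2R, against 28 of 33, 9 of 22, 16 of 23 and 38 of 39 in blood. P1 went the other way, with 32 of 47 in lung and 10 of 46 in blood. Samples with DP cells of 1 tissue had 0 of 15 in C2N and 31 of 35 in P2 for lung, and 69 of 81 in C3R and 9 of 29 in P4 for blood. Averaged over samples the share was 26.2 ± 37.1% in lung and 61.5 ± 29.99% in blood (SD, 7 samples each).

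The lost parts themselves were compared between lung and blood DP cells of the same samples. Lung minus blood was 0.18 ± 0.20 log2 on chr4 (exact p = 0.125) and 0.17 ± 0.20 on chr5 (exact p = 0.1875), above 0 in 4 of 5 samples, with P1 at -0.15 and -0.16. The difference was thus within the spread between samples. Without P1 it was 0.26 log2 on both chromosomes. The part of the sorting gates in these values was not tested.

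**Figure D5:**
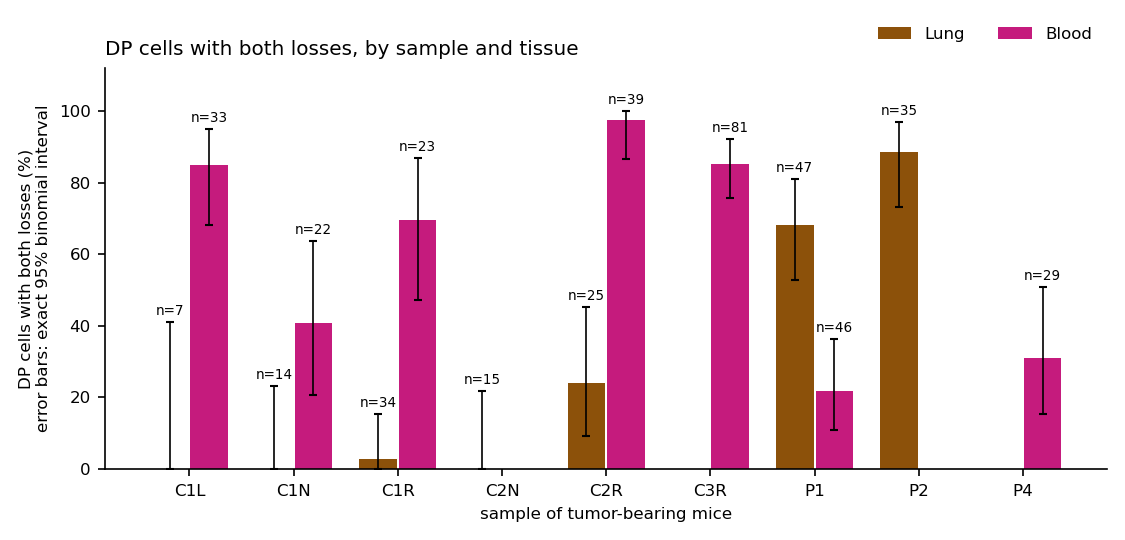
Share of DP cells with both losses (%) by sample, lung left of blood, with exact 95% binomial intervals and the number of cells above each bar; samples without a bar or interval for a tissue gave no DP cells of it. Blood is above lung in C1L, C1N, C1R and C2R, and lung above blood in P1.

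Few line-profile DP cells missed a carrier limit, and few cells of any class had a whole kept stretch shifted by 0.3 log2 or more. Changes in part of a stretch and unusually deep steps were not counted. The lowest chr4 step of line-profile DP cells was -0.87, and the lowest chr5 step of Duplike cells -0.64. Among line-profile DP cells 10 missed a carrier limit, 7 on chr4 and 3 on chr5. Some of these had a step that fell just short of the limit. In blood DP cells of C3R such steps were -0.236 and -0.222 on chr4 (limit -0.238) and -0.211 on chr5 (limit -0.218). In 6 of the 7 and 2 of the 3 the lost part was nevertheless at or below -0.3 log2, with the kept part at -0.16 or lower as well. In 1 blood DP cell of C1L the lost part was at -0.93 and the kept part at -0.93, and 1 of C1R had -0.94 on both, so that all of chr4 stood at the same low level. No CTC, cultured or PltLike cell missed a limit. Counting kept stretches that were off by 0.3 log2 or more, 5 of 450 DP cells were lower and 5 higher on kept chr4, 1 was lower before the chr5 loss and 2 after it. Among 46 WBC 1 was higher on kept chr4, and among 24 Duplike cells 1 was lower after the chr5 loss. CTC, culture, PltLike, CDP and naive WBC had 0 in these 3 stretches.

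The lost stretches also differ in what they hold. The chr4 lost part has 634 protein-coding genes in 39.3 Mb, or 16.1 per Mb, against 640 in the 114 Mb before it, or 5.61 per Mb. Its promoters have a median of 56.5% G and C, against 52.3% in the kept part and 52.7% over all promoters. On chr5 the stretch between the steps holds 362 genes in 39.2 Mb, or 9.24 per Mb, against 5.85 per Mb before it and 13.0 per Mb after it, where the autosomes together have 8.39 per Mb. Measured by the same strict runs the losses are 39.3 Mb long on chr4 and 32.5 Mb on chr5.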

How the data were processed

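Single-cell DNA was amplified by MALBAC, sequenced and binned by the authors, and the deposited table holds a normalised coverage signal of 648 cells in 4880 bins of variable width on mm10. Per the submitters' processing notes the tools were Trim Galore, BWA, Picard and SAMtools, beside HISAT2 and featureCounts. How the signal was scaled and why most cells stop at exactly 10 is not given in the sources used here. Classes, tissues and batches came from the deposited cell table.

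Members and gene lists were chosen with earlier results of these data known. Each value was divided by its cell's chr1-chr19 median, and bins at 10 in 1% of cells or more were left out. Lost runs were set on culture and naive WBC. Parts were compared over samples that had 3 cells or more in each class by a two-sided exact sign-flip permutation test, and bins by limma 3.58.1 (R 4.3.3) on class means of log2(value + 0.1) minus the cell's autosomal median, with the sample as a block, since its classes share a batch label. Benjamini-Hochberg adjustment covered all 4376 bins at 0.05. Genes took the bin over their midpoint (RefSeq, GRCm38.p6). Values are given for the 8 list genes per chromosome with the largest and up to 4 with the smallest log2 culture over naive WBC, and others named were chosen after their values were seen. Shares have 95% exact (Clopper-Pearson) intervals, while counts of 0 were given a limit of 3 cells of the total. The exact upper ends are higher, at 7.71% for 0 of 46, 16.1% for 0 of 21 and 2.07% for 0 of 176 cells. Scripts used Python 3.11.15, numpy 2.4.6, pandas 2.3.3 and scipy 1.17.1, and were tested on simulated data. Alternatives changed the pseudocount, ceiling bins, run limit, cell minimum, noise, tissue, samples, block, score and carrier limit.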

Additional observations from a re-analysis of the deposited data

Results flagged for a closer look

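Among 34 groups of samples tested for a sample standing apart, 1 was found, where chance gives about 1 in 20. The kept part of chr5 in line-profile DP cells was at 0.032 log2 in C1N, which has 6 such cells, while the next of the other 7 samples was at -0.014 and the lowest at -0.034. The lost part of chr5 in the same cells was at -0.36 in C1N.

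Bins at the ceiling in 1% of cells or more were left out of the tests. Beside the outer raised bins of chr4 described above, 2 of them stood above WBC controls. The bin chr4:25712653-26312194, over the fucosyltransferase gene Fut9, had a median level of 2.50 in WBC of tumor-bearing mice and 0.991 in naive WBC. Sample medians of WBC were 2.28 to 3.64 in C1L, C1N, C1R, C2N and C3R and 1.05 in C2R, and CTC and DP cells of each sample were on the same side as its WBC. PltLike stood at 2.69 and Duplike at 1.83, lower bounds that cannot be compared, since 20 of 24 and 21 of 24 cells were at the ceiling, while CDP at 1.02 and the culture at 0.973 were near 1. The bin chr5:14792673-15769711, over the end of Pclo and a cluster of Speer4 genes, had a median level of 2.68 in CTC, with 36 of 43 cells at the ceiling, and 1.25 in WBC. The culture stood at 2.67, with 20 of 22 cells at the ceiling, and naive WBC at 1.35.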

How the results depend on the processing

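Pairing classes by sample follows the batch label they share. Without the pairing (no replicate block, exact permutation of unpaired samples), the chr4 differences of -0.39 for CTC minus WBC, -0.24 for DP minus WBC and -0.14 for CTC minus DP, and the chr5 differences of -0.42 and -0.23, had exact p = 0.00794, and CTC minus DP on chr5 (-0.18) had exact p = 0.0159. With samples of at least 1 cell per class, DP minus WBC on chr5 was -0.20 (exact p = 0.03125, 6 samples). Without the block 18 bins were called for CTC minus DP, against 83 with it. With blood cells alone 0 were called by limma (65 at unadjusted p under 0.05). For DP minus WBC 156 bins were called, and 87 with cells at or below the median noise.

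Leaving out each sample in turn gave 184 to 212 bins for CTC minus WBC, 85 to 161 for DP minus WBC (85 without C1L and 90 without C2R) and 0 to 103 for CTC minus DP (0 without C1N, C1R or C2R, with smallest adjusted p of 0.0516, 0.0588 and 0.0601). Lost-part differences kept their sign, at -0.39 to -0.38 and -0.44 to -0.40 for CTC minus WBC on chr4 and chr5, except chr5 minus chr4 in CTC, at -0.034 to 0.0038. That difference turned positive without C1L (0.0038), over the kept part of the same chromosome (0.00067) and with low-noise cells (0.014). Line-profile DP minus CTC on chr4 turned to 0.010 with a score above 0.5, and on chr5 it was 0.058 (exact p = 0.0625), against 0.029. The cause of these changes was not tested. DP carriers of both losses were 52.0 to 58.6% under all alternatives. Of the alternative values 167 were counted as the same, 4 reversed direction, 7 newly passed the threshold and 8 fell short. With 5 samples or fewer the paired sign-flip test cannot pass 0.05, so its side of the threshold was fixed in advance there. Carrier shares and break point counts were taken as the same if inside the exact binomial interval of the main result. Depth is unknown, 5 paired samples limit the exact test, and the width of the bins limits how closely break points are placed.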
